A study of Homo sapiens with 22 samples.

Results

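The comparison described here set cells with an ARID-domain mutant of ARID1A against cells with the wild-type protein, in 4 of the 22 libraries of the series, 1 each of SMARCA4 and SMARCC1 for each form. All were made from AN3CA, a cell line grown from a human endometrial carcinoma. The cells expressed the mutant (DBDmut) or wild-type ARID1A (WT). Cells with 3 further forms (the truncations delIDR1 and CBR and the hybrid DDX4, named for an intrinsically disordered region) and with an empty vector (Empty, 2 replicates) were set beside them. No treatment or time course is given, and the labels do not say how the forms were expressed or whether a line was 1 clone. The assay was CUT&Tag, where a transposase tethered to the bound antibody cuts out nearby DNA, which is then sequenced. With a single library of each antibody for DBDmut and for WT, their differences have no replicate check and no test was possible.

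A BAF site of a form was a SMARCA4 peak that shared at least 1 bp with a SMARCC1 peak of the same form, on chromosomes 1 to 22 of hg19. There were 9670 such sites in DBDmut and 9585 in WT, out of 172232 SMARCA4 and SMARCC1 peaks in the series. The rule fixes what a site is but not its values. H3K27ac and the libraries of all other forms took no part in choosing the sites.

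BAF is a SWI/SNF chromatin remodeller that uses ATP to move nucleosomes at enhancers and promoters. SMARCA4 (BRG1) is its ATPase and SMARCC1 a scaffold subunit on which the complex is built. ARID1A defines the canonical form of the complex, and its ARID domain binds DNA with little sequence preference. H3K27ac, also profiled in these cells, marks active enhancers and promoters. The peaks do not show which complex held a subunit or whether it contained ARID1A. Without a gene annotation of hg19, sites are given by position alone, and the identity of the cells was not checked against marker genes.

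The 4 libraries differed in depth, and absent peaks have to be read with this in mind. Fragment totals are not in the peak lists, so depth was read from the background implied by each peak's fold and p-value. It came to 0.916 fragments per kb for SMARCA4 in DBDmut and 1.53 in WT, and to 1.62 for SMARCC1 in DBDmut and 3.28 in WT. The shallower DBDmut library still had the longer SMARCA4 list, with 14849 peaks against 12720 in WT. For SMARCC1 the order was the other way, with 18427 peaks in DBDmut and 23364 in WT. Both forms carried the same stamp at the start of their peak names, as did Empty replicate 1, while Empty replicate 2 carried another. The peak names of the DBDmut libraries call the form by an abbreviation (SE) that the labels do not explain, so their identity as DBDmut rests on the labels alone.

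SMARCA4 peaks coincided with SMARCC1 less often in DBDmut, and SMARCC1 peaks with SMARCA4 less often in WT, in each case the form with the longer list. The meeting peaks themselves were close in number, 9670 in DBDmut and 9585 in WT for SMARCA4, and 9558 and 9342 for SMARCC1. The part of list length in these shares was not tested. Of the DBDmut SMARCA4 peaks, 65.1% met a SMARCC1 peak (Wilson 95% interval 64.4 to 65.9), against 75.4% in WT (74.6 to 76.1). Seen from SMARCC1, 51.9% of its peaks met SMARCA4 in DBDmut (51.1 to 52.6) and 40.0% in WT (39.4 to 40.6). These and all later intervals cover counting error only, because sites close together are correlated and the PCR copies do not count separate molecules. The Empty replicates, the only repeated libraries for these antibodies, differed by less for SMARCA4 (75.2% and 70.2%) and by a similar amount for SMARCC1 (30.5% and 42.9%). Within a site the summits of the 2 subunits lay a median of 34 bp apart in DBDmut and 37 bp in WT.

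Most BAF sites of either form were BAF sites of the other. Of the DBDmut sites, 5718 met a WT BAF site (59.1%, 58.1 to 60.1), and of the WT sites 5782 met a DBDmut one (60.3%, 59.3 to 61.3). These are called shared here, and the 2 counts differ because 92 DBDmut sites met several WT sites and 25 WT sites met several DBDmut sites. Between the Empty replicates the same share was 77.8% for replicate 1 in replicate 2 and 47.8% for replicate 2 in replicate 1. The overlap of DBDmut with WT thus lay between the values that repeated Empty libraries gave. Those came from Empty lists of unlike length, 4101 and 6468 BAF sites, while the DBDmut and WT lists were of similar length. The Empty values are therefore no measure of replicate spread for DBDmut and WT.

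The sites that were not shared differed in kind between the forms. Of the DBDmut sites, 2883 (29.8%) met WT peaks without meeting a WT BAF site, and these are called partly shared. In 2617 of them the WT peak was SMARCC1 alone, in 260 it was SMARCA4 alone, and 6 met both. WT had 1830 partly shared sites (19.1%), with DBDmut SMARCC1 alone at 1260, SMARCA4 alone at 556 and both at 14. So where a DBDmut site was not a WT site, WT usually had SMARCC1 there and no called SMARCA4. SMARCC1 alone was also the more frequent kind between the Empty replicates, at 670 sites against 71 with SMARCA4 alone for replicate 1 and at 2196 against 172 for replicate 2. The WT SMARCC1 list was the longest and deepest of the 4, and its part in this was not tested.

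**Figure D1:**
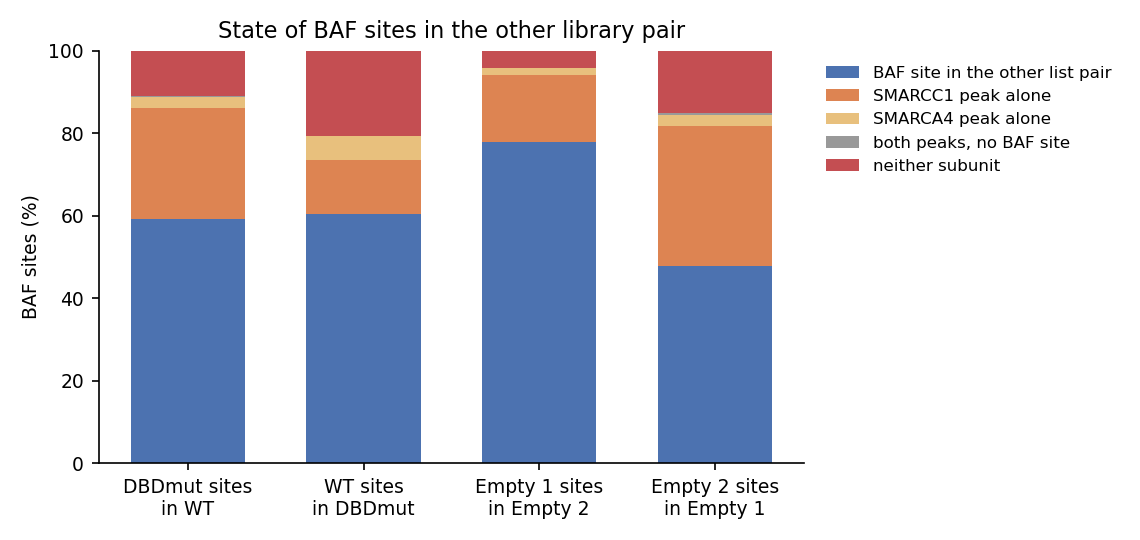
Stacked bars give the percentage of BAF sites of 1 library pair by what the other pair had there, for DBDmut sites in WT, WT sites in DBDmut, and each Empty replicate in the other. Sites with neither subunit are 11.1% for DBDmut and 20.6% for WT, beside 4.15% and 15.2% for Empty replicates 1 and 2.

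Sites with no peak of either subunit in the other form were fewer in DBDmut. There were 1069 DBDmut-only sites, 11.1% of the DBDmut BAF sites (10.4 to 11.7), and 1973 WT-only sites, 20.6% of the WT ones (19.8 to 21.4). The Empty replicates lacked each other's sites at 4.15% and 15.2%. The DBDmut share lay between these values and the WT share above both. Because the Empty lists were unlike in length, these values do not measure replicate spread for DBDmut and WT. Among all SMARCA4 peaks, with or without SMARCC1, 29.9% of the DBDmut ones and 33.3% of the WT ones had neither subunit in the other form. The count was larger in WT when a peak of either subunit counted as a match. With SMARCA4 peaks alone, matched to SMARCA4 peaks only, 8045 DBDmut peaks and 5843 WT peaks were unmatched, so the order turned. With SMARCC1 alone, matched in the same way, 6339 DBDmut and 11375 WT peaks were unmatched. The order followed the length of the lists in both cases. With lists of equal length per antibody 1088 DBDmut-only and 1781 WT-only sites were left.

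The lowest pileup of any called peak was 3 fragments for SMARCA4 and 4 for SMARCC1 in DBDmut, against 4 for SMARCA4 and 5 for SMARCC1 in WT. Sites near these limits can be missed in either form. Pileups of WT sites were scaled to DBDmut depth, by 0.599 for SMARCA4 and 0.425 for SMARCC1. After this 74.8% of WT-only sites reached both DBDmut limits, beside 96.7% of shared WT sites. Reaching a limit does not mean that a site would have been called, because a higher local background calls for more fragments. Scaled to WT depth, by 1.46 for SMARCA4 and 2.03 for SMARCC1, 100% of DBDmut-only and 100% of shared DBDmut sites reached both WT limits. This outcome was fixed in advance, because even the lowest called DBDmut pileups exceed the WT limits once scaled. It therefore says nothing about DBDmut-only sites in particular. Each factor was the smaller of the ratio of fragments per kb and the ratio of lowest backgrounds. Fragments per kb gave 0.599 and 2.03, and lowest backgrounds gave 0.425 and 1.46, so the factors of the opposite directions are not reciprocal. The part of depth in the counts of unmatched sites was not tested.

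The chance of being shared followed the strength of a site in its own lists. Sites were ordered by the sum of their SMARCA4 and SMARCC1 ranks by -log10 q and cut into 5 equal classes. From the strongest to the weakest class, 94.0%, 74.6%, 55.8%, 43.4% and 27.8% of DBDmut sites were shared. For WT sites the shares were 92.5%, 76.8%, 62.5%, 44.5% and 25.3%. Only 2 of the 1934 strongest DBDmut sites had neither subunit in WT (0.103%), against 47 of the 1917 strongest WT sites in DBDmut (2.45%). In the weakest class these were 30.5% for DBDmut and 47.4% for WT.

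**Figure D2:**
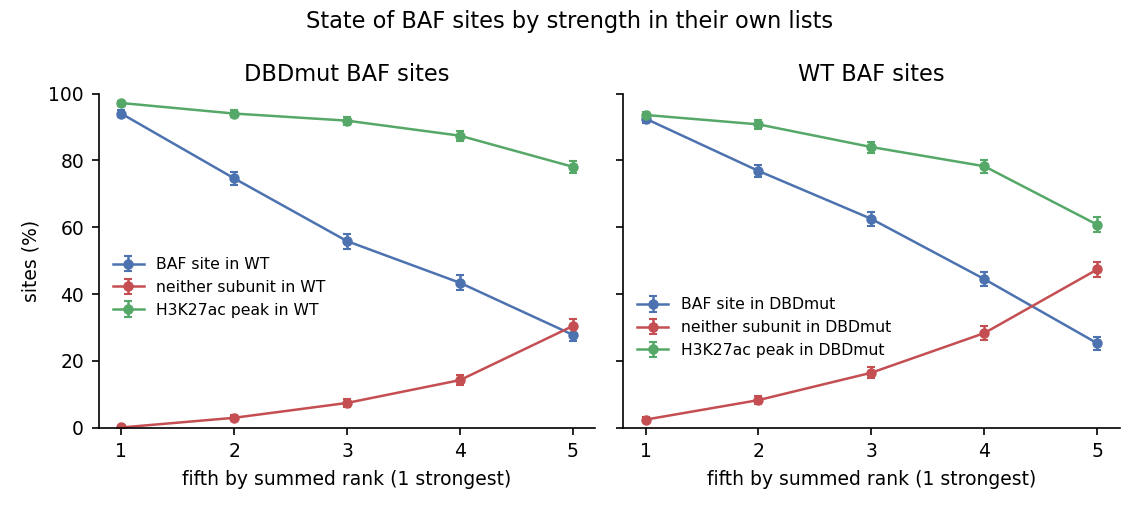
Points give the percentage of BAF sites that were shared, that had neither subunit in the other form, or that met an H3K27ac peak of the other form, by class of summed rank (5 equal classes, strongest first), for DBDmut sites (left) and WT sites (right), with Wilson 95% intervals. Shared sites fall from 94.0% to 27.8% for DBDmut and from 92.5% to 25.3% for WT, while H3K27ac of the other form stays at 78.1% or more for DBDmut sites and at 60.8% or more for WT sites.

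Shared sites were the strongest and widest, as their definition by peaks in 4 lists favours. Their median SMARCA4 rank stood at the 23.6th percentile of the DBDmut list and at the 30.3rd of the WT list, where 0 is the strongest. For SMARCC1 the values were 19.3 in DBDmut and 14.9 in WT. DBDmut-only sites stood at 60.4 for SMARCA4 and 58.5 for SMARCC1, and WT-only sites at 59.9 and 48.3. In fragments at the summit, DBDmut-only sites had a median of 8 for SMARCA4 and 10 for SMARCC1, and WT-only sites 8 and 14. Shared sites had 15 and 21 fragments in DBDmut, and 12 and 27 in WT.

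At shared sites the ranks of the forms went together only loosely. Over 5811 pairs of a DBDmut and a WT site, Spearman's rho was 0.52 for the SMARCA4 percentiles and 0.68 for those of SMARCC1, given as a description because all pairs share the same 4 libraries. Of 1410 pairs in the top 10% of the DBDmut SMARCA4 list, 721 (51.1%) were also in the top 10% of the WT list, which is 63.1% of the 1142 WT ones. The summits of the SMARCA4 peaks lay a median of 34 bp apart, and 82.6% of pairs had them within 100 bp. The DBDmut SMARCA4 peak was the wider in 69.7% of pairs, with a median of 248 bp against 191 bp in WT. The shortest peak a list held was 103 bp for DBDmut and 90 bp for WT.

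**Figure D3:**
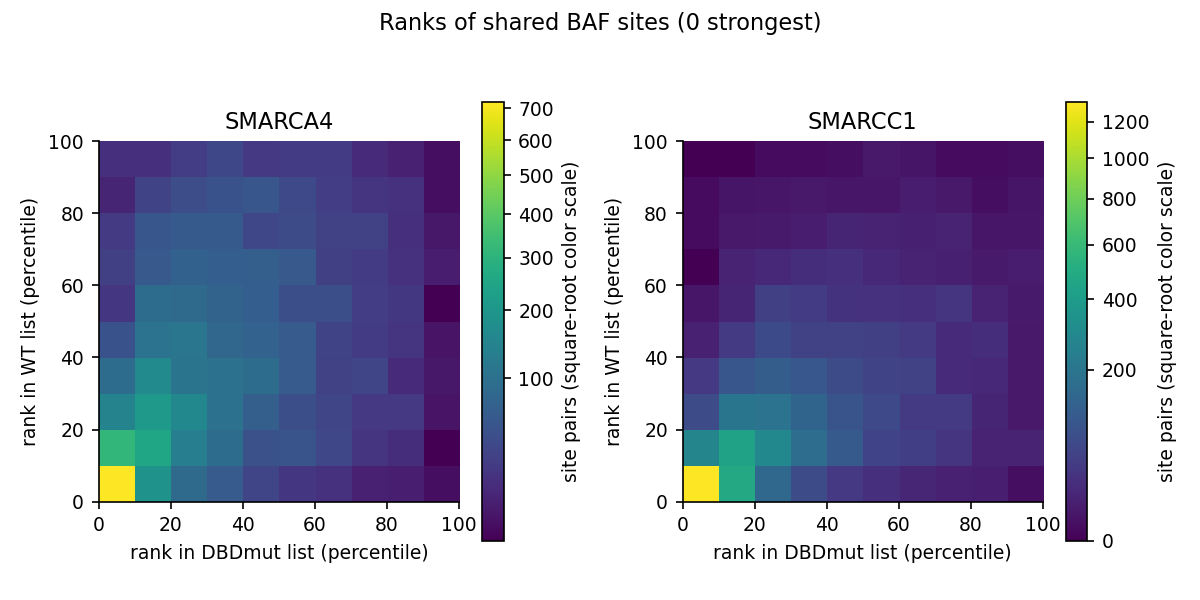
Maps count pairs of shared BAF sites by the rank percentile of their SMARCA4 (left) and SMARCC1 (right) peaks in the DBDmut list (horizontal) and the WT list (vertical), where 0 is the strongest, on a square-root color scale. The fullest cell is the top 10% of both lists, with 721 pairs for SMARCA4, and the SMARCC1 pairs lie closer to the diagonal (rho 0.68) than the SMARCA4 pairs (0.52).

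The overlap limit itself touched few sites. The smallest overlap among shared pairs was 1 bp, and 23 of the 5811 pairs overlapped by 10 bp or less. On the other side, 72 DBDmut-only sites (6.74%) and 111 WT-only sites (5.63%) had a subunit peak of the other form within 250 bp.

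The 5 shared sites of smallest summed rank were among the first 6 peaks of all 4 lists. The first, on chromosome 13 from 110076479 to 110076689 in DBDmut, had SMARCA4 folds over local background of 54.4 in the DBDmut list and 63.2 in the WT list. Another, on chromosome 11 from 10530759 to 10531539, had folds of 23.3 in the DBDmut list and 25.8 in the WT list. On chromosome 5 such a site spanned 10023 to 11771 and on chromosome 1 it spanned 121484062 to 121485429. The last spanned 133841526 to 133841891 on chromosome 12. All 5 had both subunits in every library, Empty included. The chromosome 5 site lies at a chromosome end and the chromosome 1 site next to a centromere, in repeat-rich sequence, and regions known to gather artefacts were not removed.

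The strongest DBDmut-only sites were of moderate rank. The 10 of smallest summed rank stood at 508 to 4765 in the SMARCA4 list and at 933 to 4157 in the SMARCC1 list. The highest by SMARCA4, on chromosome 11 from 10271248 to 10271424, had 24 SMARCA4 fragments (fold 17.4) and 16 SMARCC1 fragments (fold 10.7). It had H3K27ac in DBDmut and no SMARCA4, SMARCC1 or H3K27ac peak elsewhere in the series. The site on chromosome 6 from 86182617 to 86182816 had 13 SMARCA4 and 22 SMARCC1 fragments, and H3K27ac in DBDmut and WT alone.

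Other sites of this list had subunit peaks outside DBDmut. The first, on chromosome 13 from 81531438 to 81531708, had 21 SMARCA4 and 46 SMARCC1 fragments in DBDmut. Its local background was 11.7 and 17.9 times the lowest of the lists. Both subunits were also called there in delIDR1, DDX4 and Empty replicate 2, SMARCA4 in CBR and SMARCC1 in Empty replicate 1, while WT had H3K27ac alone. On chromosome 7, the DBDmut-only site at 4923375 to 4923510 was marked by both subunits and H3K27ac in CBR and both Empty replicates as well, while WT lacked all 3. The site on chromosome 4 from 73276139 to 73276550, with 11 SMARCA4 and 30 SMARCC1 fragments, had all 3 in delIDR1 too, and H3K27ac without a subunit in WT. Over the 10 sites, Empty replicates 1 and 2 had SMARCC1 at 5 each and SMARCA4 at 1 and 4. H3K27ac was called at 8 in DBDmut and 5 in WT.

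The strongest WT-only sites fell into 2 kinds. The first 5 lay at high local background, 20.5 to 188 times the lowest of their list, and each had a SMARCC1 peak in Empty replicate 1. They were on chromosome 10 from 42527971 to 42528103, chromosome 11 from 51579575 to 51579664, chromosome 19 from 27736385 to 27736516, and chromosome 2 from 92315331 to 92315831 and from 92297362 to 92297581, all close to centromeres. The chromosome 19 site had 102 SMARCA4 fragments at a fold of 3.84, and both subunits also in CBR and Empty replicate 1. The second chromosome 2 site had both subunits in every form except DBDmut.

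The remaining strong WT-only sites had no subunit peak in either Empty replicate and few peaks outside WT, apart from delIDR1. The site on chromosome 10 from 64966781 to 64967081 had 24 SMARCA4 fragments (fold 14.4, rank 480) and 39 SMARCC1 fragments (fold 14.5) in WT. Both subunits and H3K27ac were also called there in delIDR1, and DBDmut had H3K27ac alone. The site on chromosome 2 from 102686632 to 102687000 had 18 and 36 fragments, SMARCC1 and H3K27ac in delIDR1, H3K27ac in DDX4, and nothing in DBDmut. On chromosome 6, the site from 44013451 to 44013586 had 37 and 63 fragments, a background up to 23.3 times the lowest and all 3 antibodies in delIDR1, and the site from 3061939 to 3062159 had 22 and 40 fragments and SMARCA4 in CBR. The last of the 10, on chromosome 10 from 112159261 to 112159382, had 24 and 42 fragments, with H3K27ac in DBDmut and delIDR1.

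Leaving out high local background, a step added after seeing these sites, made the WT-only list more uniform. Among the 10 strongest WT-only sites with a background of at most 10 times the lowest for both subunits, none had a subunit peak in either Empty replicate, 10 had H3K27ac in WT and 6 had it in DBDmut. They included the site on chromosome 1 from 180546571 to 180546803, with 18 SMARCA4 and 25 SMARCC1 fragments and all 3 antibodies in delIDR1. For DBDmut-only sites chosen in the same way, Empty replicates 1 and 2 had SMARCC1 at 4 each and SMARCA4 at 2 and 3. Over the full sets, 108 of the DBDmut-only SMARCA4 peaks (10.1%) and 78 of the WT-only ones (3.95%) exceeded that background. Over all BAF sites these shares were 22.5% in DBDmut and 7.74% in WT, so both sets lay below their own lists.

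The Empty libraries, which took no part in choosing the sites, separated the DBDmut-only from the WT-only sites. Neither subunit was called in either Empty replicate at 478 of the 1069 DBDmut-only sites (44.7%, 41.8 to 47.7), against 1705 of the 1973 WT-only sites (86.4%, 84.8 to 87.9). Over all BAF sites these shares were 28.5% in DBDmut and 45.1% in WT. SMARCC1 was called at 38.0% and 40.5% of DBDmut-only sites in Empty replicates 1 and 2, and at 7.45% and 9.07% of WT-only sites. SMARCA4 was called at 7.76% and 25.1% of DBDmut-only sites, and at 3.70% and 5.32% of WT-only sites. Over all BAF sites SMARCC1 was called at 62.8% and 65.3% in DBDmut and at 48.1% and 50.2% in WT. For SMARCA4 these shares were 37.4% and 49.5% in DBDmut and 33.3% and 38.7% in WT. Both sets thus lay below their own lists, and the order of the forms held for the whole lists too. The replicates gave close values for SMARCC1 and unlike ones for SMARCA4 at DBDmut-only sites, and in each replicate both subunits were more frequent at DBDmut-only than at WT-only sites.

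The same difference was seen at every strength that could be compared. In the second to the weakest of the 5 classes of strength, 24.1%, 24.3%, 37.3% and 55.3% of DBDmut-only sites had no Empty peak of either subunit, out of 58, 144, 276 and 589 sites. For WT-only sites the values were 82.4%, 88.3%, 87.3% and 86.3% of 159, 316, 543 and 908 sites. Shared sites, which are the same loci seen from either form, had no Empty peak at 26.7% of the DBDmut ones. Partly shared sites differed, with 26.0% in DBDmut and 58.7% in WT. When a single subunit defined the sites, the peaks of the other form and of Empty were also judged by that subunit alone. The gap was smaller by this different measure, with 72.6% for DBDmut and 88.9% for WT with SMARCA4 peaks. With SMARCC1 peaks it was 63.8% for DBDmut and 82.5% for WT.

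The libraries of the other forms showed the same order. At least 1 subunit was called at 29.7% of DBDmut-only sites in delIDR1, 32.2% in CBR and 38.7% in DDX4, against 16.8%, 14.7% and 7.30% of WT-only sites. Over all BAF sites the shares in delIDR1, CBR and DDX4 were 69.2%, 64.5% and 65.9% for DBDmut and 60.5%, 55.7% and 50.9% for WT. No subunit peak of delIDR1, CBR, DDX4 or either Empty replicate was found at 338 DBDmut-only sites (31.6%, 28.9 to 34.5) and at 1389 WT-only sites (70.4%, 68.3 to 72.4). Over all BAF sites it was 1302 of 9670 in DBDmut and 2589 of 9585 in WT, so the same order held for the whole lists. All 5 of these library pairs had a subunit at 71 DBDmut-only sites (6.64%) and at 37 WT-only sites (1.88%), beside 57.6% of the shared DBDmut sites. Each form is again 1 library per antibody, and their lists differ in length.

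**Figure D4:**
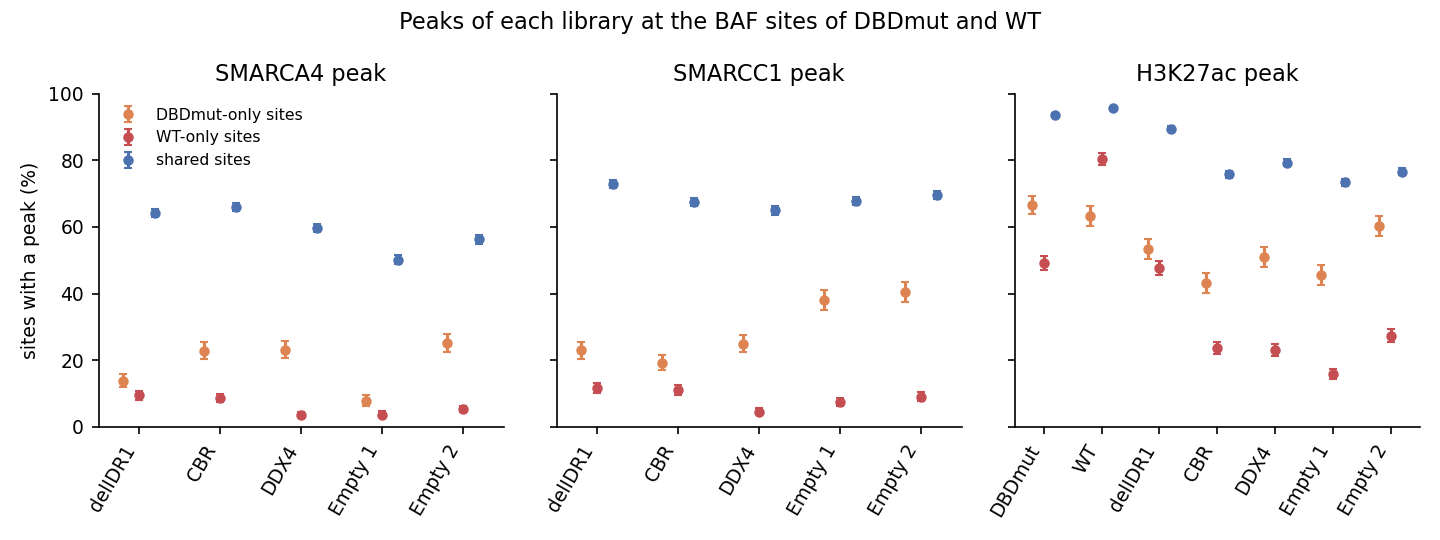
Points give the percentage of DBDmut-only, WT-only and shared (DBDmut side) BAF sites that met a SMARCA4, SMARCC1 or H3K27ac peak of each library, with Wilson 95% intervals. WT-only sites lie below DBDmut-only sites for both subunits in all 5 other library pairs, and for H3K27ac in every library but WT, where they are at 80.4% against 63.3%.

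H3K27ac, independent of how sites were chosen, was unevenly split at WT-only sites and more evenly at DBDmut-only sites. DBDmut-only sites met an H3K27ac peak at 66.6% in DBDmut (63.7 to 69.4) and at 63.3% in WT (60.4 to 66.2). WT-only sites met one at 49.2% in DBDmut (47.0 to 51.4) and at 80.4% in WT (78.6 to 82.1). Over all DBDmut BAF sites the values were 88.4% in DBDmut and 89.7% in WT, and over all WT BAF sites 81.5% in DBDmut and 90.4% in WT. The H3K27ac lists held 38153 peaks in DBDmut and 49682 in WT, and the part of list length in these shares was not tested.

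Comparing the 2 forms site by site, 125 DBDmut-only sites (11.7%) had H3K27ac in DBDmut and not in WT, and 90 (8.42%) the reverse. At WT-only sites the split was 40 (2.03%) in DBDmut alone and 657 (33.3%) in WT alone. Sites with H3K27ac in both forms made up 54.9% of DBDmut-only and 47.1% of WT-only sites. Neither form had it at 267 DBDmut-only and 346 WT-only sites. Shared sites on the DBDmut side had it in both forms at 92.2%, in DBDmut alone at 1.31% and in WT alone at 3.38%.

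**Figure D5:**
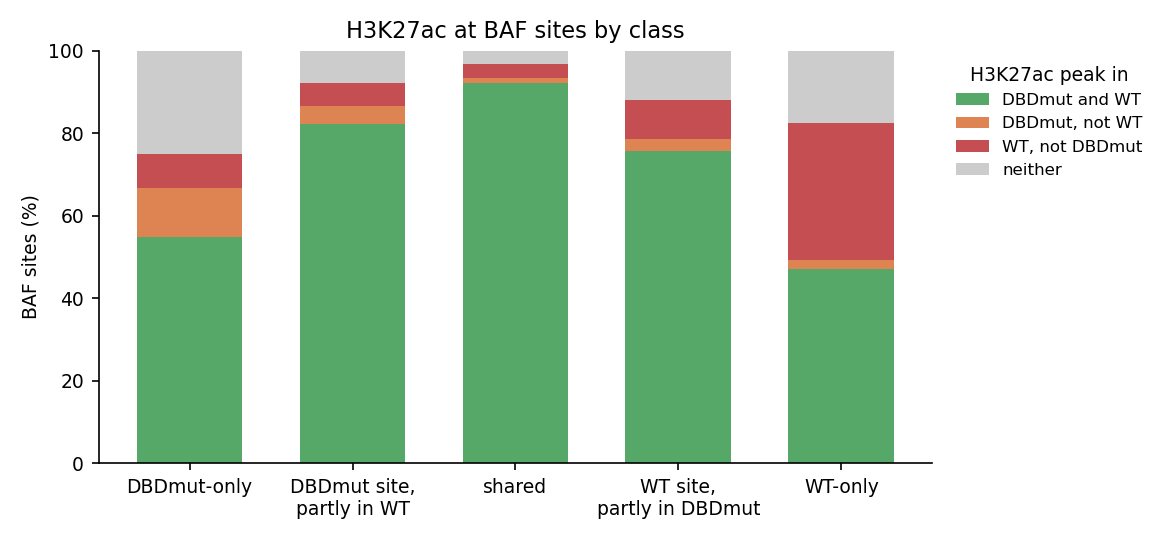
Stacked bars give the percentage of BAF sites with an H3K27ac peak in DBDmut and WT, in DBDmut alone, in WT alone or in neither, for DBDmut-only, partly shared DBDmut, shared (DBDmut side), partly shared WT and WT-only sites. H3K27ac in WT alone makes up 33.3% of WT-only sites and at most 9.40% of any other class.

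WT-only sites had H3K27ac more often in DBDmut than in Empty cells, although DBDmut had neither subunit called there. The share was 49.2% in DBDmut, against 15.8% and 27.4% in Empty replicates 1 and 2, whose lists held 35429 and 90766 H3K27ac peaks. The delIDR1 library was close to DBDmut at 47.6%, while CBR had 23.6% and DDX4 23.1%. Over all WT BAF sites H3K27ac was also more frequent in DBDmut, at 81.5%, than in Empty replicates 1 and 2, at 55.2% and 61.2%, and stood at 76.6% in delIDR1, 58.9% in CBR and 61.8% in DDX4. At the 1389 WT-only sites with no H3K27ac peak in either Empty replicate, DBDmut had one at 551 (39.7%) and WT at 1079 (77.7%). Over all 3489 WT BAF sites without Empty H3K27ac the shares were 63.7% in DBDmut and 82.0% in WT. Of the 1389 sites, 529 had it in both forms, 22 in DBDmut alone and 550 in WT alone. At DBDmut-only sites H3K27ac was called at 45.6% and 60.3% in Empty replicates 1 and 2, against 66.6% in DBDmut. Over all DBDmut BAF sites these shares were 69.1% and 74.9% in the Empty replicates and 88.4% in DBDmut. At the 406 DBDmut-only sites where Empty had none, DBDmut had it at 246 (60.6%) and WT at 183 (45.1%). Over all 2236 such DBDmut BAF sites the shares were 79.0% in DBDmut and 75.7% in WT.

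Along the genome, sites of either kind were scattered. The nearest BAF site of WT was a median of 47.7 kb from a DBDmut-only site, and the nearest of DBDmut 56.4 kb from a WT-only site. Within 10 kb there was one for 18.7% of DBDmut-only and 16.8% of WT-only sites. Neighbouring sites of 1 kind were joined into regions, across gaps of up to 12.2 kb for DBDmut-only and 12.45 kb for WT-only sites. This left 94.8% of DBDmut-only and 90.8% of WT-only sites on their own. No region held 3 or more of the 1069 DBDmut-only sites, whereas 9 regions held 33 of the 1973 WT-only sites. The part of the larger WT-only set in this was not tested.

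The richest regions of each kind were unlike. Of the DBDmut-only regions, 28 were tied at 2 sites each and none held more. The first 2 by best SMARCA4 rank lay on chromosome 14 from 23764339 to 23771219 and from 42243258 to 42252159. In the first of these, H3K27ac was called at 1 site in DBDmut and 1 in WT, but at both sites in each Empty replicate. Each Empty replicate had a subunit at 1 of its sites, and its background reached 11.9 times the lowest. In the second, both sites had H3K27ac in DBDmut and neither in WT or Empty, while Empty replicate 1 had a subunit at 1 of them. The 2 richest WT-only regions, with 6 sites each, spanned 15.7 kb on chromosome 10 from 42527422 and 25.2 kb on chromosome 2 from 92297362. Their local background was 27.7 to 131 times the lowest, and CBR had a subunit at 6 and 5 of the sites. The next, chosen after its values were seen, spanned 8.87 kb on chromosome 6 from 15257090 to 15265957 with 3 sites at 3.57 to 5.39 times the lowest background. All 3 had H3K27ac in WT, 2 had it in delIDR1, and none in DBDmut or either Empty replicate. Another region of 3 WT-only sites, on chromosome 4 from 49141398 to 49149403, lay at 13.5 to 15.8 times the lowest background. Both Empty replicates had a subunit at all 3 of its sites.

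By chromosome, the ratio of DBDmut-only to WT-only sites ran from 0.307 on chromosome 10, with 39 DBDmut-only and 127 WT-only sites, to 0.917 on chromosome 13, with 33 DBDmut-only and 36 WT-only, around 0.542 for all sites. DBDmut-only sites made up 6.62% of the DBDmut sites of chromosome 18 and 16.2% of those of chromosome 15. WT-only sites made up 12.6% of the WT sites of chromosome 19 and 25.2% of those of chromosome 9. WT-only sites were the more numerous on each of the 22 chromosomes.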

How the data were processed

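A commercial CUT&Tag procedure with 14 PCR cycles was followed, per the labels' protocols. The submitters' processing notes name the build hg19 and the tool bcl2fastq. No aligner, treatment of duplicates, peak caller or control is named there or elsewhere in the sources used here. The authors deposited 1 peak list per library, with a fold ratio over local background and a -log10 p and -log10 q per peak. The lowest -log10 q was 2.01 in each of the 4 lists except 2.00 for DBDmut SMARCC1. These are the authors' values, used only to describe or rank peaks within a list.

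Samples were grouped by their titles, also where peak names use another abbreviation (DBDmut). Peaks on chromosomes 1 to 22 met when they shared 1 bp. Each peak's whole pileup and background were solved from its fold and Poisson p-value with a tolerance of 0.001 on the -log10 p scale, and this worked for 99.87% or more of the peaks in each list. Depth in fragments per kb was the lowest background over the width of the shortest peak, taken as the fragment length. Peaks with a -log10 p of 250 or more have no pileup. Overlap and pileup code was tested on simulated data. Shares have Wilson intervals.

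Named sites were the 10 DBDmut-only, 10 WT-only and 5 shared sites of smallest summed rank, the 2 richest regions of each kind and the chromosomes of highest and lowest ratio. The comparison and its rules were chosen with earlier results of these data known. Gene starts and motifs were not analysed here, as no hg19 annotation or genome was used. Python 3.11.15, numpy 2.4.6, scipy 1.17.1, pandas 2.3.3 and matplotlib 3.10.9 were used.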

Additional observations from a re-analysis of the deposited data

How the results depend on the processing

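Of 84 recomputed values, 46 stayed within the counting interval of the main value (for counts, within 1.5 times) and 38 moved. In the settings with SMARCA4 alone or SMARCC1 alone, matches in the other form and in Empty were judged by that subunit only, which changes the measure. The share of DBDmut sites that were shared, 59.1%, became 57.9% at a -log10 q of at least 5, 57.9% with an overlap of 50% of the shorter peak, 57.6% with summits within 250 bp, 45.8% with SMARCA4 alone, 65.6% with SMARCC1 alone and 54.3% without high local background, a setting chosen after seeing the data. The share of WT sites, 60.3%, became 63.0%, 58.6%, 59.0%, 54.1%, 51.3% and 58.6% under the same settings, and 61.6% with equal list lengths. The 1069 DBDmut-only and 1973 WT-only sites became 8045 DBDmut-only and 5843 WT-only peaks with SMARCA4 alone, where the order turned, and 6339 DBDmut-only and 11375 WT-only peaks with SMARCC1 alone. The share of DBDmut-only sites with no Empty subunit peak, 44.7%, became 38.4% at the stricter q, 41.6% at equal list lengths, 72.6% with SMARCA4 alone, 63.8% with SMARCC1 alone and 49.1% without high background. For WT-only sites this share, 86.4%, became 88.9% with SMARCA4 alone, 82.5% with SMARCC1 alone and 88.7% without high background. Leaving out an Empty replicate gave 55.1% to 59.7% for DBDmut-only and 89.3% to 91.0% for WT-only sites. WT H3K27ac at DBDmut-only sites, 63.3%, became 60.3% with the 50% overlap, 54.2% with summits within 250 bp, 59.6% with SMARCA4 alone and 47.2% with SMARCC1 alone. DBDmut H3K27ac at WT-only sites, 49.2%, became 52.4% at the stricter q, 51.8% at equal list lengths, 44.9% with summits within 250 bp, 46.7% with SMARCA4 alone and 45.9% with SMARCC1 alone. Counting peaks within 250 bp, anchoring on SMARCC1 and using all sequences moved none of the 8 results. The cause of the moves was not tested. No paired analysis was possible because DBDmut and WT have 1 library per antibody. Depth limits what an absent peak means, most in the shallower DBDmut libraries, and with no second DBDmut or WT library no difference can be set against replicate error.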
